A study of Ovis aries with 2 samples.

Results

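The genes T (brachyury), CDX1, CDX2 and CDX4 were followed in single cells of sheep embryos, together with 3 partner genes, FGF8, SOX2 and TBX6, for which detection in the same cell was counted. The 4 genes were taken by their symbols among the 26478 features of the count matrices, in which brachyury is listed as T. The identifiers were ENSOARG00020026117 for T, ENSOARG00020011893 for CDX1, ENSOARG00020011783 for CDX2 and ENSOARG00020019400 for CDX4, with 1 feature each. Embryos of day 16 were compared between Hulunbuir sheep, a short-tailed breed, and Ujumqin sheep, a breed with a long fat tail that served as the control. The embryos of a breed were pooled before loading, so each breed had 1 library of the 10x 3′ assay and no sample replicate. Tissue outside the embryo proper was removed and red blood cells were lysed in both breeds. The unique molecular identifiers (UMIs) of a gene were counted for every cell barcode, and a barcode was kept as a cell when it held 200 or more genes and less than 10% of its UMIs were mitochondrial.

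Brachyury is a T-box transcription factor of the primitive streak, the tail bud and the notochord, and the tail of an embryo does not extend without it. The CDX genes encode caudal-type homeobox factors that act upstream of the HOX genes in the growing posterior end, and CDX2 is also a factor of the trophoblast and the intestinal epithelium. In the tail bud, neuromesodermal progenitors carry T and SOX2 together under FGF and WNT signals. Their descendants keep SOX2 when they enter the neural tube and turn on TBX6, a T-box factor of the presomitic mesoderm, when they enter the somite lineage.

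The Ujumqin library held 14554 kept cells with a median of 9519 UMIs and the Hulunbuir library 9583 with a median of 11879. In Ujumqin, 4999 kept cells (34.3%) fell in clusters with the markers of erythroid cells, against no such cluster in Hulunbuir, and the levels between libraries are therefore given over the remaining 9555 and 9583 cells. The Ujumqin cells that remained were shallow, with a median of 1824 UMIs. A level is the number of UMIs of a gene per 1000000 UMIs of the cells (CPM). Intervals are exact 95% intervals of the counts and cover counting error only. No test between breeds was possible with 1 library each, and breed, library and the cells that each library sampled cannot be told apart. Cells are not replicates, and fewer cells of a type and less RNA per cell cannot be told apart in a level over a library. Of the barcodes, 61 occurred in both libraries and 50 of these were kept in both, of which 9 in Hulunbuir had a CDX2 UMI and none had a T UMI.

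T, CDX2 and CDX4 were all higher in the Hulunbuir library, and the gap was wider for the CDX genes than for T. T had 20 UMIs in Ujumqin (0.186 CPM) and 123 in Hulunbuir (0.956 CPM), which is a 5.13-fold difference (interval 3.18 to 8.70). CDX2 had 148 UMIs in Ujumqin (1.38 CPM) and 3284 in Hulunbuir (25.5 CPM), which is 18.5-fold (15.7 to 22.0). CDX4 had 38 UMIs in Ujumqin (0.354 CPM) and 1750 in Hulunbuir (13.6 CPM), which is 38.4-fold (27.9 to 54.5). The 3 intervals did not overlap, so the order of the differences, from T to CDX2 to CDX4, was larger than the counting error. CDX1 was near the limit of detection in both libraries, with 2 UMIs in Ujumqin and 8 in Hulunbuir, and the interval of its log2 difference, 1.74, ran from -0.59 to 5.01. Among 13245 genes with at least 20 UMIs in both libraries together, 4.31% were at least 4-fold higher in Hulunbuir and 3.04% at least 4-fold lower, and T, CDX2 and CDX4 were among the former. The median log2 difference of the tested genes with UMIs in both libraries was 0.41, against 2.36 for T, 4.21 for CDX2 and 5.26 for CDX4. As a mean of the cells' own CPM values, in which shallow cells weigh as much as deep ones, the log2 difference of T was 0.79 and that of CDX1 6.49.

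**Figure D1:**
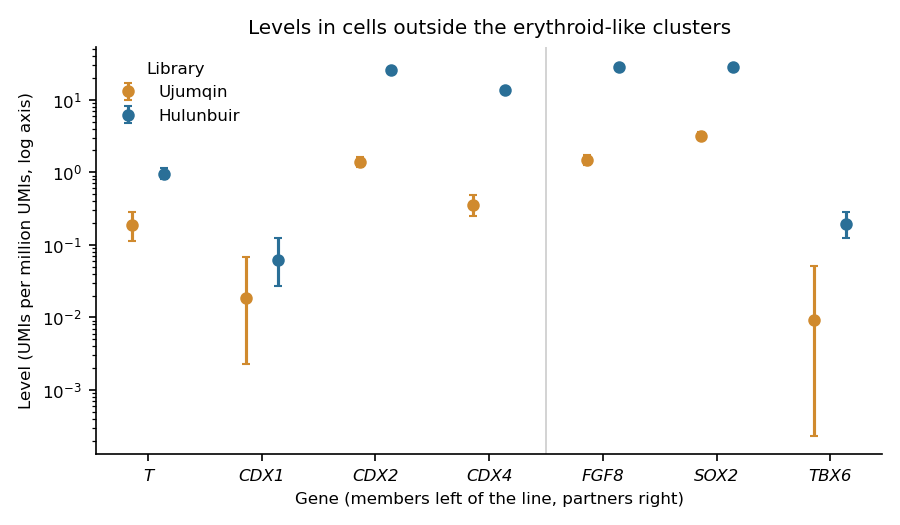
Levels of the 4 genes and the 3 partners in kept cells outside the erythroid-like clusters, in UMIs per 1000000 UMIs on a log axis, with 1 point per library and exact 95% Poisson intervals. Points of the Hulunbuir library lie above those of Ujumqin for every gene, and the intervals of CDX1 overlap.

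The partner genes shifted in the same direction. SOX2, a factor of neural progenitors, had 344 UMIs in Ujumqin and 3650 in Hulunbuir, a log2 difference of 3.15. FGF8, the growth factor of the tail bud, had 158 and 3679 UMIs, a log2 difference of 4.28. TBX6 was scarce, with 1 UMI in Ujumqin and 25 in Hulunbuir, and its ratio of 20.9 had an interval from 3.42 to 857. A single cell carried much of the Ujumqin signal of T: a barcode of 130547 UMIs held 6 of the 20 T UMIs, together with 6 of CDX2, 18 of FGF8 and 32 of SOX2. Without this cell the log2 difference of T was 2.87 (2.07 to 3.79), and without the Ujumqin cell richest in each gene it was 4.27 for CDX2 and 5.38 for CDX4.

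The number of cells with a UMI followed the levels. T was detected in 13 Ujumqin cells outside the erythroid-like clusters (0.136%) and in 106 Hulunbuir cells (1.11%, exact binomial interval 0.906 to 1.34). CDX2 was detected in 103 (1.08%) and 1738 cells (18.1%, 17.4 to 18.9), and CDX4 in 30 (0.314%) and 1128 cells (11.8%, 11.1 to 12.4). Most detections were single molecules for T, with 95 of the 106 Hulunbuir cells at 1 UMI and a maximum of 5. CDX2 had 941 cells at 1 UMI, 412 at 2, 201 at 3 and 184 above 3, up to 12 in a cell. CDX4 had 725 cells at 1 UMI, 267 at 2, 89 at 3 and 47 above 3, up to 8.

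Erythroid-like and endothelium-like cells were taken as a reference for low counts. Whether their UMIs came from free RNA, doublets or expression in these cells was not tested. In the erythroid-like cells of Ujumqin, at a median of 20495 UMIs, T was seen in 0 of 4999 cells, which allows a share of up to 0.0600% by the limit of 3 counts, CDX2 in 4 (0.0800%), CDX4 in 1 and CDX1 in 5. The last count exceeds the 2 CDX1 cells outside these clusters, where the median was 1824 UMIs. By level, CDX1 was at 0.0489 CPM (0.0159 to 0.114) in the erythroid-like cells and 0.0186 (0.00226 to 0.0673) outside them. The intervals overlap, so a CDX1 signal above this reference was not detectable in Ujumqin. In the endothelium-like cells of Hulunbuir, 710 cells at a median of 12842.5 UMIs, T was seen in 1 cell (0.141%), CDX2 in 20 (2.82%) and CDX4 in 5 (0.704%). The shares of T, CDX2 and CDX4 over the Hulunbuir library were above those of its endothelium-like cells. The latter pooled a deep cluster (498 cells, median 18464 UMIs, CDX2 in 19 cells, 3.82%) and a shallow one (212 cells, median 1362.5 UMIs, CDX2 in 1 cell). With every cell thinned to 1000 UMIs, CDX2 remained in 21 of 6310 Ujumqin cells (0.333%) and 299 of 9067 Hulunbuir cells (3.30%), and CDX4 in 9 (0.143%) and 172 (1.90%). T fell to 3 and 8 cells, and with thinning to 500 UMIs to 5 of 9555 Ujumqin cells (0.0523%, 0.0170 to 0.122) and 3 of 9583 Hulunbuir cells (0.0313%, 0.00646 to 0.0915), so a higher share of T cells in Hulunbuir was not detectable at these equal depths. At 1000 UMIs, 3245 Ujumqin and 516 Hulunbuir cells were too shallow to enter.

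Within the Hulunbuir library, T was concentrated in 1 cluster and the CDX genes spread over several. Each library was clustered on its own with the 4 genes and their partners left out of the clustering genes, and clusters were named only where marker lists allowed it. Cluster 5, 810 cells with FGF8, SH2D1A and DLL3 among the leading genes, had as many markers of the caudal neuroectoderm as of the presomitic mesoderm and was left unnamed. It held 97 of the 123 T UMIs, at 9.53 CPM (7.73 to 11.6), and 81 of its cells (10.0%) had a T UMI. Cluster 10, 232 cells of caudal neuroectoderm-like type with SOX2, FGF8 and CDH6 in front, held 9 T UMIs at 3.01 CPM (1.38 to 5.71), below cluster 5 with no overlap of the intervals. The clusters after these had few molecules, with 6 T UMIs in cluster 4, 4 in cluster 2 and 3 in cluster 9. The level of 3.99 CPM in the 28 cardiomyocyte-like cells came from 1 UMI. T was at 0 in 9 of the 18 clusters, among them the presomitic-like, spinal cord-like and somite-like clusters.

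CDX2 had a plateau over 3 clusters. Its level was 97.1 CPM (91.2 to 103) in cluster 5, 93.8 (88.7 to 99.0) in cluster 4 and 93.3 (82.7 to 105) in cluster 10, and these neighbours in the order did not differ beyond counting error. Cluster 4, 1225 cells led by MYO3A, CDX4, CDX2 and PITX1, had mesenchyme and allantois markers in equal number and was left unnamed. Cluster 9, 237 cells led by CXCL14, AP1M2 and TFAP2B, came next at 66.1 CPM (57.9 to 75.1), then cluster 3 at 51.8 (44.8 to 59.7), a cluster of 1399 shallow cells at a median of 1858 UMIs, and cluster 15 at 37.4 (30.1 to 46.1), led by APOA2, TTR and KRT7. The shares of cells with a CDX2 UMI were 63.1% in cluster 5, 50.5% in cluster 4, 59.9% in cluster 10 and 48.9% in cluster 9. CDX2 dropped to 9.19 CPM in the presomitic-like cluster 12 and, in cluster 11 of spinal cord-like type, to 3.13 CPM, the latter close to the 2.56 CPM of the larger endothelium-like cluster.

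CDX4 followed another order. It was highest in the caudal neuroectoderm-like cluster 10, at 88.3 CPM (78.0 to 99.6), then 63.1 (58.3 to 68.2) in cluster 5, 44.0 (40.5 to 47.6) in cluster 4 and 29.3 (24.0 to 35.3) in cluster 3, and each step of this order was larger than the counting error. It was low in cluster 9 at 10.4 CPM (7.33 to 14.3) and in cluster 15 at 5.47, where CDX2 was well above its level in the endothelium-like cells. CDX1 had 3 UMIs in cluster 4, 2 in cluster 5 and 1 in each of clusters 1, 2 and 3. Of the 8 Hulunbuir cells with CDX1, 6 also had CDX4 and 3 had CDX2.

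**Figure D2:**
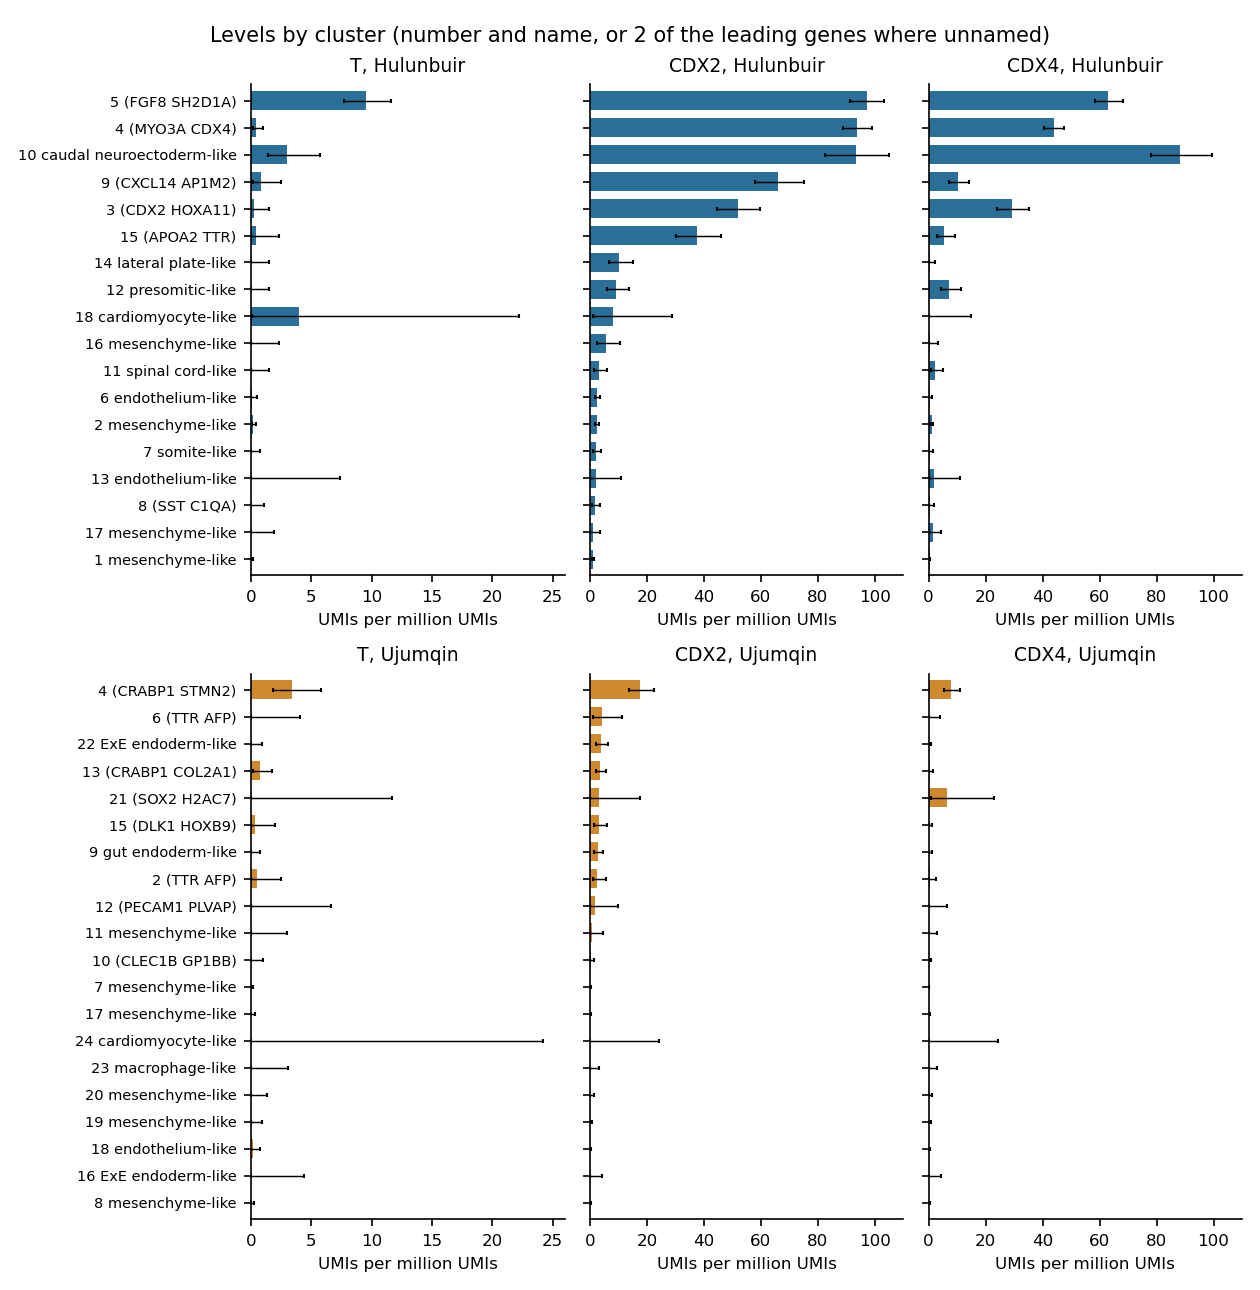
Levels of T, CDX2 and CDX4 in UMIs per 1000000 UMIs by cluster, with Hulunbuir above and Ujumqin below, erythroid-like clusters left out and clusters ordered by CDX2. Bars are levels with exact 95% Poisson intervals, and in Hulunbuir T stands out in cluster 5 (9.53), CDX2 reaches over 90 in clusters 5, 4 and 10, and CDX4 peaks at 88.3 in cluster 10.

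The ratio of CDX4 to CDX2 differed between clusters, also among clusters 10, 5 and 4, which were alike in CDX2 level. For every 100 CDX2 UMIs, cluster 10 held 94.6 CDX4 UMIs (79.7 to 112), cluster 5 65.0 (58.7 to 71.8), cluster 3 56.5 (44.2 to 71.8), cluster 4 46.9 (42.5 to 51.7), cluster 9 15.7 (10.8 to 22.3) and cluster 15 14.6 (7.49 to 26.3). The ratio was lowest in clusters 9 and 15 among these, in which KRT7, a keratin of simple epithelia, stood at 159 and 439 CPM and EPCAM, an epithelial adhesion molecule, at 224 and 305 CPM. The defining endoderm factors FOXA1, FOXA2, FOXA3 and HNF4A were at 0 UMIs in cluster 9, and cluster 15 had 6 UMIs of FOXA2. Cluster 9 had 4 markers each of surface ectoderm and gut endoderm, and 3 each of trophectoderm or amnion and of neural crest. Cluster 15 had 5 of gut endoderm and 4 of extraembryonic endoderm. Both were left unnamed. T gave a second contrast, with 9.82 UMIs per 100 CDX2 UMIs (7.89 to 12.1) in cluster 5, 3.23 (1.46 to 6.21) in cluster 10 and 0.467 (0.171 to 1.02) in cluster 4. A capture rate of its own for each transcript sets the absolute ratio, so only its change between clusters was read.

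**Figure D3:**
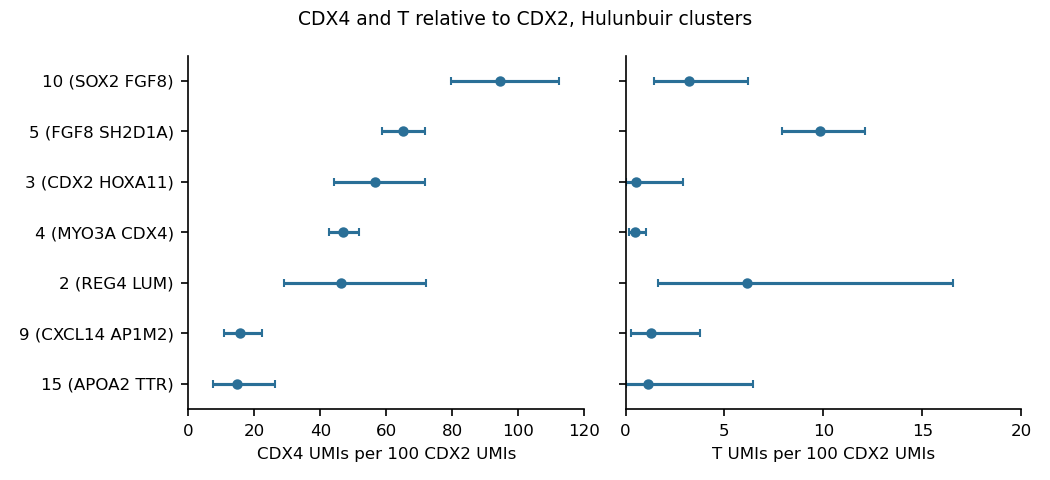
CDX4 (left) and T (right) UMIs per 100 CDX2 UMIs in Hulunbuir clusters with at least 60 CDX2 UMIs, as points with exact 95% intervals, each cluster given with 2 of its leading genes. CDX4 relative to CDX2 runs from 14.6 in cluster 15 to 94.6 in cluster 10, and T relative to CDX2 is highest in cluster 5 at 9.82.

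Clusters 5, 10 and 4 carried the same CDX2 level in different company. FGF8 was at 259 CPM in cluster 5, 171 in cluster 10 and 3.6 in cluster 4, and SOX2 at 49.9, 431 and 2.6 CPM in the same order. Cluster 5 also had the WNT ligand WNT5B at 278 CPM, the retinoic acid-degrading enzyme CYP26A1 at 47.1 and the Notch ligand DLL3 at 496 CPM, with 63 UMIs of MSGN1, a presomitic factor, and none of MESP1 or MESP2. Cluster 4 instead had BMP4 at 135 CPM, the hindlimb factor PITX1 at 58.9 and HOXA11, a posterior HOX gene, at 45.6 CPM, against 1.97 in cluster 5 and 2.01 in cluster 10. HOX genes of groups 4 to 9 summed to 841 CPM in cluster 10, 662 in cluster 5 and 623 in cluster 4, whereas groups 10 to 13 summed to 8.70, 12.0 and 95.6 CPM.

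In single Hulunbuir cells, T was found with FGF8, SOX2 and the CDX genes and not with TBX6. Of the 106 cells with a T UMI, 87 had FGF8 (82.1%, 73.4 to 88.8), against 10.2% of the 9477 cells without T. CDX2 was found in 65 of them (61.3%, 51.4 to 70.6) against 17.7%, CDX4 in 54 (50.9%) against 11.3%, and SOX2 in 58 (54.7%, 44.8 to 64.4) against 8.56%. TBX6 was in 0 of the 106 cells, which allows a share of up to 2.83% by the same limit, against 0.264% of the others, so a difference in TBX6 was not detectable at this depth. Among the T cells, 55 had FGF8 and SOX2, 32 had FGF8 without SOX2, 3 had SOX2 without FGF8 and 16 had none of the 3 partners. CDX2 or CDX4 was present in 83 of the T cells (78.3%), both in 36 (34.0%), and 23 cells carried CDX2, CDX4, FGF8 and SOX2 together with T. The doublet score marked 4 of the 106. Cells with T had a median of 12909.5 UMIs and those without 11866, and these shares depend strongly on depth. With cells thinned to 1000 or 2000 UMIs, the FGF8 share of the few T cells left stayed above that of all cells. An excess of SOX2 or CDX2 in T cells was not detectable at these depths.

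Inside cluster 5, where most T cells lay, SOX2 and not the CDX genes differed by share between cells with and without T. In cluster 5, CDX2 was seen in 51 of 81 cells with T (63.0%) and 460 of 729 without (63.1%), and CDX4 in 43 (53.1%) and 383 (52.5%), differences within the counting error. SOX2 was seen in 44 cells with T (54.3%, 42.9 to 65.4) and in 223 without (30.6%), and FGF8 in 72 (88.9%) and 574 (78.7%), with overlapping intervals. TBX6 was seen in 0 of the 81 and in 18 of the 729 cells (2.47%). The limit of 3 counts allows up to 3.70% in the 81, so a difference in TBX6 was not detectable. By level, the cells with T in cluster 5 had more CYP26A1 (93.8 against 41.7 CPM, log2 1.17, 0.84 to 1.49), more SOX2 (90.1 against 45.3, log2 0.99, 0.65 to 1.32) and more FGF8 (395 against 243, log2 0.70, 0.55 to 0.85). They had less DLL3 (271 against 522 CPM, log2 -0.95, -1.12 to -0.77) and less RSPO3, a WNT agonist (130 against 178, log2 -0.45, -0.72 to -0.20). Of 14 genes of caudal progenitors and the WNT response with enough UMIs, 4 were above, 1 below and 9 had an interval that held 0, and of 8 presomitic genes 1 was below and 7 held 0. The median depth was 12878 UMIs in the cells with T and 12121 in the others.

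**Figure D4:**
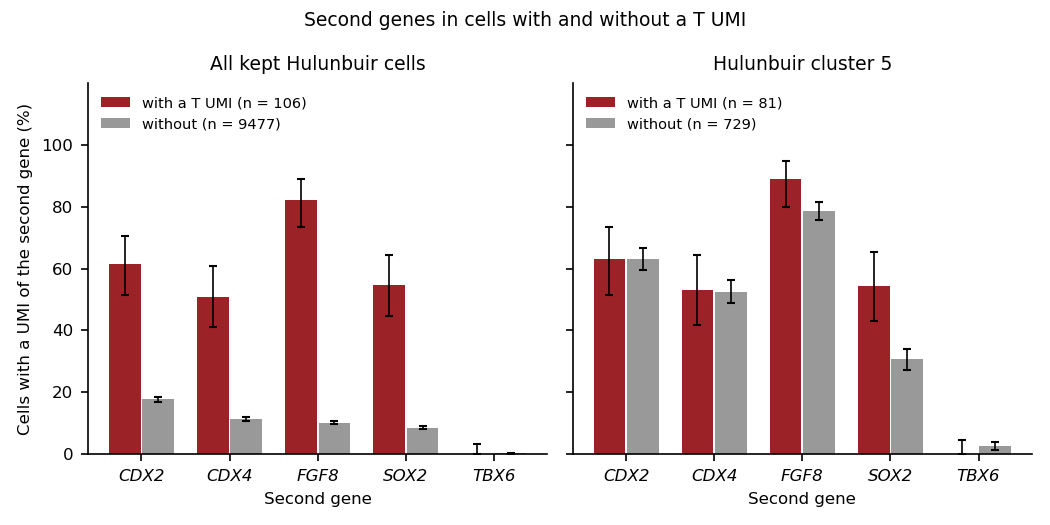
Percent of Hulunbuir cells with a UMI of CDX2, CDX4, FGF8, SOX2 or TBX6 among cells with (red) and without (grey) a T UMI, for all kept cells and for cluster 5, with exact 95% binomial intervals. Over all cells each bar except that of TBX6 is higher with T, and in cluster 5 the bars of CDX2 and CDX4 are level while SOX2 is at 54.3% against 30.6%.

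The CDX genes also met each other. CDX4 was detected in 736 of the 1738 Hulunbuir cells with CDX2 (42.3%), and CDX2 in 65.2% of the cells with CDX4. In cluster 4, 255 of 619 cells with CDX2 had CDX4 (41.2%), against 16.7% of the cells without CDX2. The 6 T cells of cluster 4 had neither FGF8 nor SOX2, whereas 8 of the 9 in cluster 10 had FGF8 and all 9 had SOX2.

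A small set of T cells carried NOTO, a homeobox factor of the node and notochord, a set described after its values were seen. In Hulunbuir 8 cells had a NOTO UMI, all in cluster 5, and 6 of them had T, which together held 11 of the 13 NOTO UMIs. Of these 6 cells, 4 had more than 1 T UMI, against 7 of the 100 T cells without NOTO, and none of the 6 had CDX4, against 54 of the 100. In Ujumqin the only 2 cells with NOTO, with 5 and 2 NOTO UMIs, were also the only 2 with more than 1 T UMI. These cells held 6 and 3 T UMIs, had CDX2 and SOX2 and lacked CDX4, and lay in clusters 4 and 13. The other 11 Ujumqin T cells had 1 T UMI each. The 10 notochord markers summed to 35.0 CPM in the Hulunbuir T cells against 6.27 in the others and to 78.8 against 2.08 CPM in Ujumqin. At least 1 of them was found in 11 of 106 and 3 of 13 T cells. These sums rested mostly on SEMA3E and on NOTO, which defined the set. Of 52 UMIs in the Hulunbuir T cells, 28 were of SEMA3E and 11 of NOTO, and of 20 in Ujumqin, 8 and 7. SEMA3E was found in 424 Hulunbuir cells, of which 6 had T. The defining markers were sparse, since CHRD was in none of the Hulunbuir T cells, SHH in 1 and FOXA2 in 2, and FAM183A was at 0 in both libraries.

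In Ujumqin, the highest levels of T, CDX2 and CDX4 were in cluster 4, which had no CDX1 UMI, 1422 shallow cells at a median of 1694.5 UMIs led by CRABP1, STMN2 and CD24. It held 13 T UMIs in 8 cells at 3.39 CPM (1.80 to 5.79), 68 CDX2 UMIs in 41 cells at 17.7 CPM (13.8 to 22.5) and 30 CDX4 UMIs in 24 cells at 7.82 CPM (5.27 to 11.2). The cluster also carried the erythroid genes AHSP, a haemoglobin chaperone, at 166 CPM and ALAS2, the erythroid enzyme of haem synthesis, at 58.4 CPM, and the part of such RNA in its values was not tested. CDX4 stood at 44.1 UMIs per 100 CDX2 UMIs there (27.7 to 68.7). The 13 T cells had between 642 and 130547 UMIs, 10 of them had none of the 3 partners, and CDX2 was found in 3, SOX2 in 3, FGF8 in 1 and CDX4 in none. Of the 103 Ujumqin cells with CDX2, 10 had CDX4, 17 had SOX2 and 6 had FGF8. A separate source of CDX2 was the extraembryonic endoderm-like cluster 22, with 16 UMIs in 16 of 69 cells (23.2%) at a median of 51100 UMIs, no T, no CDX4 and a level of 3.86 CPM (2.21 to 6.26). The Ujumqin library had T at 0 in 19 of its 24 clusters, CDX2 in 8 and CDX4 in 17.

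Clustering both libraries together gave clusters in which the members could be set side by side. The 3 clusters of highest CDX2 level in Hulunbuir, chosen after the data were seen, held 45 of 9555 Ujumqin cells (0.471%, 0.344 to 0.630) and 2359 of 9583 Hulunbuir cells (24.6%, 23.8 to 25.5). Within them CDX2 was at 46.4 CPM in Ujumqin (52 UMIs, 34.7 to 60.9) and 91.9 in Hulunbuir (2599 UMIs, 88.4 to 95.5), a log2 difference of 0.98 (0.59 to 1.41) where the whole libraries gave 4.21. CDX4 was at 12.5 CPM (14 UMIs) and 54.2 CPM (1532 UMIs), a log2 difference of 2.12 (1.36 to 2.99) where the whole libraries gave 5.26. The direction of T depended on 1 cell, with 8.93 CPM in Ujumqin (10 UMIs in 3 cells, 4.28 to 16.4) and 3.93 in Hulunbuir (111 UMIs in 96 cells, 3.23 to 4.73), a log2 difference of -1.19 (-2.12 to -0.09). Without the cell of 130547 UMIs, Ujumqin kept 4 T UMIs in 2 cells, at 4.04 CPM (1.10 to 10.4), and the log2 difference was -0.043 (-1.44 to 1.86). The clusters were picked by the Hulunbuir level of CDX2, which tilts their CDX2 difference towards Hulunbuir, so these values are a description. The difference of CDX2 and CDX4 over the libraries was accompanied by a large difference in the number of cells in these clusters. In Ujumqin the clusters held 35.1% of the CDX2 UMIs, 36.8% of those of CDX4 and 50% of those of T outside the erythroid-like cells. In Hulunbuir they held 79.1%, 87.5% and 90.2%. Most Ujumqin UMIs of CDX2 and CDX4 thus lay in other clusters.

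**Figure D5:**
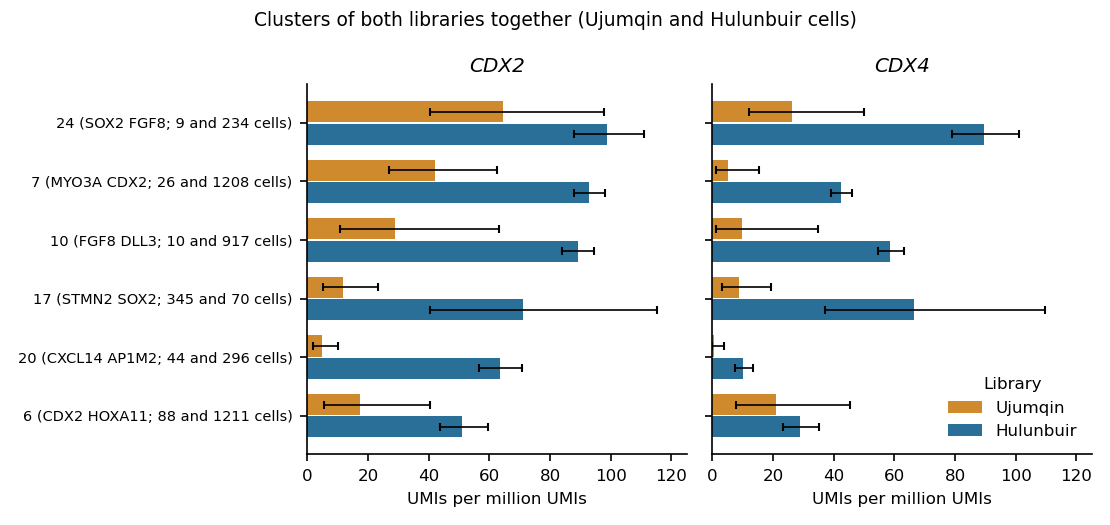
Levels of CDX2 and CDX4 in UMIs per 1000000 UMIs in 6 clusters of both libraries together, with the numbers of Ujumqin and Hulunbuir cells beside each cluster and exact 95% Poisson intervals. CDX2 is at 64.5 in Ujumqin and 98.9 in Hulunbuir in cluster 24, where the intervals meet, and Hulunbuir is higher in the other clusters, while CDX4 in cluster 6 is at 20.9 and 28.9.

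Cluster by cluster, the closest match was the caudal neuroectoderm-like cluster of 9 Ujumqin and 234 Hulunbuir cells. There the log2 difference of CDX2 was 0.62 (-0.01 to 1.31), an interval that held 0, and that of CDX4 was 1.76 (0.82 to 2.91). In the unnamed cluster of 10 and 917 cells, T had 0 UMIs in Ujumqin, where 3 counts would be 14.5 CPM, and 94 in Hulunbuir at 7.80 CPM, and CDX2 was at 29.0 and 89.1 CPM, log2 1.62 (0.49 to 3.07). In the allantois-like cluster of 26 and 1208 cells CDX2 differed by 1.15 (0.57 to 1.80) and CDX4 by 3.02 (1.46 to 5.30) on the log2 scale. T was higher in Ujumqin in both named clusters, but each Ujumqin value rested mainly on 1 cell. In the caudal neuroectoderm-like cluster T was at 17.6 and 3.11 CPM, and the Ujumqin UMIs came from 1 cell (log2 -2.50, -4.15 to -0.73). In the allantois-like cluster T was at 6.99 and 0.5996 CPM, from 4 and 8 UMIs (log2 -3.54, -5.44 to -1.36). Of these 4 Ujumqin UMIs, 3 came from 1 cell, which also had NOTO. The intervals treat the UMIs of a cell as separate counts. The libraries were clustered without correction for the library, which can keep like cells apart.

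The genes around the 4 factors were read in lists. Over all tested genes 4.31% were at least 4-fold higher and 3.04% lower. Of 9 FGF and WNT ligands of the caudal end, 7 were at least 4-fold higher in Hulunbuir, with a median log2 difference of 3.01, also with the genes at 0 in Ujumqin set to 3 counts there, and FGF17 went from 0.0372 to 2.62 CPM, WNT5B from 2.06 to 36.6 and WNT5A by 2.40 on the log2 scale. FGF4 and WNT3A had no UMI in Ujumqin and 33 and 24 in Hulunbuir. Of 14 genes of caudal progenitors and the WNT response, 6 were higher (median 1.81), among them CYP26A1 at 5.11 and the RNA-binding factor LIN28A at 2.12. The WNT inhibitor NKD1 at 1.35, GRSF1 at 0.28 and RSPO3 at -0.19 were within 4-fold. Of 15 presomitic genes 8 were higher (median 2.05 over the 14 with UMIs in both libraries, 2.31 with a gene at 0 set to 3 counts). Among the 8 were DLL3 at 3.66, RIPPLY2 at 2.63 and MSGN1, which had 0 and 71 UMIs. DLL1 at 1.78 and the somite factor MEOX1 at 1.31 were within 4-fold. Of the 107 distinct genes of all lists, 36 were at least 4-fold higher and 1 lower, and HNF4A, an endoderm factor, was the lower one at -5.20. The list counts include the partners FGF8, SOX2 and TBX6, which are all among the higher genes and were already reported above.

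HOX genes, known targets of the CDX factors, had median differences below those of CDX2 and CDX4. Of 19 genes of HOX groups 4 to 9, 9 were at least 4-fold higher (median 1.77), where 4.31% of all tested genes were. Among the 9 were HOXA6 at 2.60 and HOXB9 at 2.02, while HOXA7 at 1.77 and HOXC9 at 1.46 were within 4-fold. Of 8 genes of groups 10 to 13, 3 were higher (median 1.66), among them HOXC10 at 2.35. HOXA13 at 1.82, HOXA11 at 1.50 and HOXC12 at 0.88 were within 4-fold. Of 11 genes of retinoic acid handling, 3 were higher (median 1.38), among them the receptor RARG at 2.18. The binding proteins CRABP2 at 1.98 and CRABP1 at 1.63 were within 4-fold. The notochord and node list had 0 of 4 genes past 4-fold (median 0.66), with NOG at 1.31, SOX9 at 0.69, NOTO at 0.63 from 7 and 13 UMIs and FOXA1 at -0.61. Of 7 other T-box genes none passed 4-fold (median 1.06), with MGA at 1.12, TBX20 at 1.07, TBX4 at 1.06 and TBX3 at 0.72. Of 14 genes of the allantois and lateral plate 1 was higher (median 0.95), ISL1 at 3.89, beside BMP4 at 1.86, PITX1 at 0.84 and HAND2 at 0.49. Of 11 hindgut and endoderm genes none was higher (median 0.21), with KRT8 at 1.55, EPCAM at 1.40, KRT18 at 1.25 and CLDN4 at -1.52.

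Genes whose levels ran with those of the factors over clusters were described by Pearson's r of log2(CPM + 1). The values were first taken over the 18 Hulunbuir clusters of 1 library. These clusters differed in cell type and in depth, with median UMIs from 1362.5 in cluster 13 to 19461 in cluster 1. Neither was held constant in r. T ran closest with SAMD3 (0.85), the WNT effector TCF7 (0.85), TCEA3 (0.77), TCEAL1 (0.75) and FAM162A (0.75). Every cluster weighed the same in r. The T level of the small cardiomyocyte-like cluster came from 1 UMI and lay above that of the caudal neuroectoderm-like cluster. It enters every r of T in Hulunbuir, and its effect was not tested. CDX2 ran closest with HOXC6 (0.95), Hoxc8, LY6G6D, KIF26B and MLLT3 (0.89 each), and CDX4 with RARG, CDX2, LAG3 and HOXC6 (0.87 each) and LY6G6D (0.86). Between members, r was 0.87 for CDX2 with CDX4, 0.61 for T with CDX2 and 0.53 for T with CDX4. Over the 24 Ujumqin clusters, where most had no T or CDX4 UMI, T ran with CER1 (0.87), GRP (0.80), DLL3 (0.80), FGF8 (0.79) and VAT1L (0.78), CDX2 with CD24 (0.89), SLC2A5 (0.88), MAPK4 (0.87), BEX5 (0.85) and CENPV (0.82), and CDX4 with PAX6 (0.95), SOX2 (0.92), ZIC2 (0.82), PCBP4 (0.81) and RET (0.81).

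Cells with and without a UMI of T or CDX2 were also compared. Of the 106 Hulunbuir T cells, 81 lay in cluster 5, so their ratios also carry the difference between clusters. Against the other kept cells, the 106 Hulunbuir T cells had the largest ratios, with 10 CPM added to both levels, for genes that included FGF8 (330 against 25.1), the fructose transporter SLC2A5 (342 against 27.4) and RCN2 (1657 against 216), followed by WNT5B, ERICH2, CYP26A1, LSAMP, SH2D1A and CRABP1. The cells with CDX2 led with genes that included SLC2A5 (114 against 12.5 CPM), WNT5B, CRABP1 and FGF8, then DUSP6, a target of FGF signalling, CDX4 (51.9 against 5.02), RCN2, CRABP2 and ERICH2. In Ujumqin, the 13 T cells led with SLC2A5 (614 against 2.69 CPM) and ERICH2 (516 against 8.07), then IGFBP2, COL2A1, SOX9, CALCOCO2, CD24, CRABP2, DUSP6 and RCN2, levels in which the cell of 130547 UMIs weighs most. The 103 Ujumqin cells with CDX2 led instead with CXCL14 and the plasma protein genes APOA2 and TTR, then SLC2A5 (104 against 1.35 CPM), SERPINA1, AQP8, TF, APOM and AHSG, the liver-type genes of the extraembryonic endoderm-like cluster among them. Deep cells weigh most in these levels too, and that cluster, 22, had a median of 51100 UMIs. Of the 103 cells, 41 lay in cluster 4, which had a median of 1694.5 UMIs.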

How the data were processed

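UMI counts per gene and barcode were deposited for 1 library per breed; the authors counted them with Cell Ranger on the Rambouillet v1.0 assembly of the sheep genome, without normalization. The file header names Cell Ranger 5.0.0 and the submitters' processing notes 3.1.0. The totals were 212933364 UMIs over 17059 Ujumqin barcodes and 131385353 over 10709 Hulunbuir barcodes.

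The filter left out 2505 and 1126 barcodes. Each library was scaled to 10000 UMIs per cell and log-transformed, 2000 variable genes without the members and partners gave 30 principal components, and a shared-neighbour graph (20 neighbours, links under 1 in 15 removed) was clustered at a resolution of 1. A marker list named a cluster when at least 3 of its genes, each in 10% of the cells and 3-fold above the median of the other clusters, led the lists without a tie and a marker was among the 10 leading genes. Scrublet marked 153 (1.05%) and 89 (0.929%) kept cells, which were kept. Levels were sums of UMIs per 1000000, with exact Poisson, conditional or Clopper-Pearson intervals at 95%, a floor of 3 counts and no test. Shares were repeated after thinning to 1000 UMIs. The rule for named genes took the 4 members, the 3 partners, the 5 genes of highest r per member (at least 50 UMIs), the 4 genes with most UMIs of each of 10 pathway lists (at least 20 UMIs) and the 10 genes of largest ratio in T or CDX2 cells; others are named as cluster context, and the genes of the NOTO set and of the contrast inside cluster 5 were chosen after values were seen. A few genes that this rule names are not reported here. The members and lists were chosen with earlier results of these data known. Count recovery was tested on simulated data. Clustering used scanpy 1.11.5, scikit-learn 1.9.0, igraph 0.11.9 and leidenalg 0.10.2, and intervals scipy 1.17.1, in Python 3.11.15 with pandas 2.3.3, numpy 2.4.6 and matplotlib 3.10.9. Gene coordinates and sequences are not given here.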

Additional observations from a re-analysis of the deposited data

Results flagged for a closer look

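CDX2 and CDX4 had a signal among the barcodes that failed the filter on genes or mitochondrial UMIs, which entered no comparison of kept cells. CDX2 was at 17.6 CPM (48 UMIs in 38 of 1126 Hulunbuir barcodes, 3.37%, interval 13.0 to 23.3), against 2.38 CPM in Ujumqin (8 UMIs over 2505 barcodes, 1.03 to 4.70). CDX4 was at 7.32 CPM (20 UMIs in 18 barcodes, 4.47 to 11.3), against 0.894 CPM (3 UMIs, 0.184 to 2.61). T had 2 UMIs in these Hulunbuir barcodes and 0 in those of Ujumqin.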

How the results depend on the processing

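Of 118 alternative values, 72 moved by less than their counting interval or the set limit, 44 moved further and 2 changed sign, both of T. Of these 2, the value without the Ujumqin cell of most T UMIs had an interval that held 0 (-1.44 to 1.86). The log2 differences of T, CDX2 and CDX4 were 3.32, 5.13 and 6.19 over all kept cells, where the erythroid-like cells enter the Ujumqin total, and 3.34, 5.07 and 6.09 over all barcodes. As means of the cells' CPM they were 0.79, 3.40 and 4.25, and 6.49 for CDX1. Within the 3 clusters of both libraries they were -1.19, 0.98 and 2.12, and without the Ujumqin cell of most T UMIs -0.043, 0.98 and 1.94. Thinning to 500 UMIs gave shares of 0.0523% and 0.0313% for T in Ujumqin and Hulunbuir, 0.126% and 1.78% for CDX2 in Ujumqin and Hulunbuir and 0.0314% and 0.991% for CDX4, and 2000 UMIs gave 0.0652% for T in Ujumqin and 0.200%, 6.10% and 3.38% for T, CDX2 and CDX4 in Hulunbuir. At 1000 and 2000 UMIs, T cells had FGF8 in 25.0% and 58.8%, SOX2 in 12.5% and 5.88% and CDX2 in 0% and 17.6%. All Hulunbuir cells at these depths had FGF8 in 2.72% and 4.96%, SOX2 in 2.88% and 4.61% and CDX2 in 3.30% and 6.10%. The T cells' intervals lay above these shares for FGF8 and held them for SOX2 and CDX2. CDX2 cells had CDX4 in 4.68% and 13.5%, and CDX4 cells had CDX2 in 8.14% and 24.3%. Of the listed genes, 76 were higher and 4 lower at a limit of 2-fold, which 19.6% of all genes passed upwards, 73 were higher over all kept cells, where 10.6% of all genes were, and 2 of 131 lower with a minimum of 1 UMI, where 7.73% were. The highest Ujumqin cluster level at resolution 2 was 9.72 CPM for T, 65.1 for CDX2 (25 UMIs, 109 cells) and 33.9 for CDX4, and 17.6, 64.5 and 26.4 with both libraries together, while Hulunbuir at resolution 2 reached 12.0 for T and 118 for CDX2. The thinned T cells are few, and T is limited by depth throughout. No paired analysis was possible because each breed had 1 library, and no replicate could be left out.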
